A study of Mus musculus with 25 samples.

Results

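Integrins are cell surface receptors made of 1 alpha and 1 beta subunit, and the 10 subunits described here form receptors for matrix and latent TGF-beta that are studied in lung mesenchyme. The members were chosen by name: the alpha subunits Itga1, Itga5, Itga8 and Itga11, which pair with Itgb1; Itgb1 itself; the alpha subunit Itgav; and the beta subunits Itgb3, Itgb5, Itgb6 and Itgb8, each of which pairs with Itgav. They are 10 of the 47729 genes listed in the bulk count table. All 10 were among the 15773 genes with enough reads to be tested, so none was lost to the filter on low counts.

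The samples were lung cells sorted as lineage negative, abbreviated Lin-, meaning that cells with surface CD45 (leukocytes), CD31 (endothelium) or CD326 (epithelium) had been removed. Every mouse, naive ones included, was C57BL/6 and carried Col1a1-Cre-ERT2;Fas fl/fl, in which the Col1a1 promoter drives a Cre recombinase that is active only after tamoxifen. Fas is a death receptor. Naive mice received no bleomycin; the other mice received intratracheal bleomycin, which injures the lung and causes fibrosis, and were studied 3 or 6 weeks later. Mice called Fas-/- had been injected with tamoxifen and mice called Fas+/+ with corn oil, so that deletion and tamoxifen cannot be told apart. By design only cells that express Col1a1 are open to the deletion, and ages are not given in the sources used here. Bulk RNA-seq held 4 libraries in each of 5 groups, and the study's methods count individual animals as replicates, while the labels name no animal. Single-cell RNA-seq held 1 library per condition, made from 4 pooled mice, and therefore allows no test between conditions.

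Alpha subunits largely set which ligand an integrin recognises, and most beta subunits carry a tail that binds talin and kindlin inside the cell. Itga5 with Itgb1 is the classical fibronectin receptor; Itga8 with Itgb1 binds nephronectin and other ligands with the RGD motif; Itga1 and Itga11 with Itgb1 are collagen receptors. The Itgav integrins bind vitronectin, fibronectin and the latency peptide of TGF-beta, and some of them can release the active cytokine by pulling on that peptide. Release of the cytokine is why the Itgav integrins are studied in fibrosis. Itgb6 is best known from epithelium, and Itgb3 is also the partner of Itga2b on platelets.

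The bulk libraries held between 11819700 and 25189096 counted reads, with a median of 20122870. Fas itself was counted over the whole gene, which does not separate the floxed exon and so does not check the deletion: its mean was 41.0 ± 11.3 CPM (SD, n = 4) in Fas+/+ and 44.3 ± 14.2 in Fas-/- libraries at 3 weeks, and 31.4 ± 6.24 and 40.4 ± 4.59 at 6 weeks. CPM stands for read counts scaled to library size after TMM normalisation (counts per 1e6). The study checked the deletion in its single-cell data. It reported lower expression of the floxed exon in Fas-/- cells at 3 and 6 weeks, and similar deletion in all clusters. Other cells were present in the sort. The summed level of 10 blood endothelial markers ran from 185 to 475 CPM in naive libraries, and stood at 10080 CPM in 3-week Fas+/+ replicate 1 and at 9073 in 3-week Fas-/- replicate 4, the highest of all libraries. The same 2 libraries were the highest of their groups in epithelial markers and the lowest of their groups in markers of profibrotic fibroblasts. For several members, results that rest on them are also given without the library of each group that was highest in endothelial markers. That library was chosen by the mean log2 CPM of the markers. The summed level of 6 erythroid markers was 2980 to 9591 CPM in naive libraries and 17.1 to 236 CPM in all libraries after bleomycin. Every comparison with naive holds this difference, whose part in the results was not tested. In bulk samples, fewer cells of a type and less RNA per cell cannot be told apart.

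Compared per length, as CPM per kilobase of exon, the subunits spanned a wide range in naive Lin- cells. Itga8 stood highest with a mean level of 215 ± 26.4 CPM per kilobase (SD, n = 4), followed by Itgb1 at 188 ± 6.21 and Itgb5 at 119 ± 6.33. Itga5 at 20.1 ± 4.48, Itga1 at 11.3 ± 2.20 and Itgav at 10.5 ± 0.541 formed the middle of the order. Itgb3 at 4.58 ± 0.618, Itga11 at 4.45 ± 1.498, Itgb8 at 1.54 ± 0.312 and Itgb6 at 0.183 ± 0.0735 CPM per kilobase were the lowest. Among neighbours in this order, the libraries of Itga8 and Itgb1, of Itga1 and Itgav, and of Itgb3 and Itga11 overlapped; the other neighbours did not overlap. At 3 weeks the head of the order differed: Itgb1 came first at 234.6 ± 23.9 CPM per kilobase in Fas+/+ libraries and Itga8 came after Itgb5 at 84.9 ± 21.2, next to Itga5 at 69.3 ± 23.6, with overlapping libraries. In 3-week Fas-/- libraries Itga8 was at 118 ± 20.6 and Itga5 at 58.6 ± 11.7 CPM per kilobase, without overlap. At 6 weeks Itgb1 and Itga8 were again the highest, at 199 ± 5.29 and 174 ± 14.95 in Fas+/+ and at 200 ± 3.10 and 176 ± 14.2 in Fas-/- libraries. The order at the head depended on the length used: per kilobase of the longest coding transcript Itga8 stood above Itgb1 at 6 weeks (221 and 213 CPM per kilobase in Fas+/+, 223 and 214 in Fas-/- libraries) and above Itgb5 in 3-week Fas-/- libraries (149.6 and 134). Itgav stood well below its partner Itgb5 in every group, with a mean ratio per length between 0.0831 and 0.0994.

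**Figure D1:**
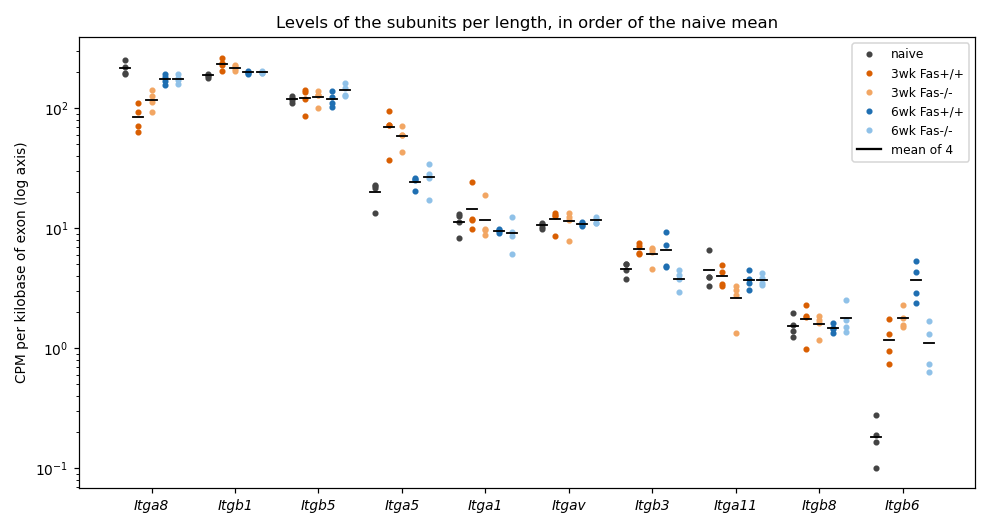
Level of each of the 10 subunits per kilobase of exon (y axis, log scale, CPM per kilobase) in the 20 bulk libraries, with subunits on the x axis in order of their naive mean. Points are libraries, colours are the 5 groups and short black lines are means of 4. Itga8 dropped from 215 to 84.9 CPM per kilobase between naive and 3-week Fas+/+ libraries while Itga5 moved from 20.1 to 69.3.

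Against naive mice, 4 members were called higher and 1 lower in 3-week Fas+/+ libraries, where 22.1% of all tested genes were called higher and 19.2% lower. In 3-week Fas-/- libraries 3 members were called higher and 2 lower, against 17.2% and 14.8% of all genes. A gene was called where its adjusted p from the edgeR quasi-likelihood test was at most 0.05. At 6 weeks only Itgb6 was called higher, in Fas+/+ libraries (3.57% of genes called higher, 1.74% lower) and in Fas-/- libraries (3.66% and 2.81%), and no member was called lower. The median log2 fold change of the 10 members was 0.249, 0.088, 0.016 and 0.114 in these comparisons, beside 0.011, 0.020, 0.001 and 0.010 over all tested genes. These 4 comparisons share the naive libraries, so their values are set side by side and are not independent of each other.

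**Figure D2:**
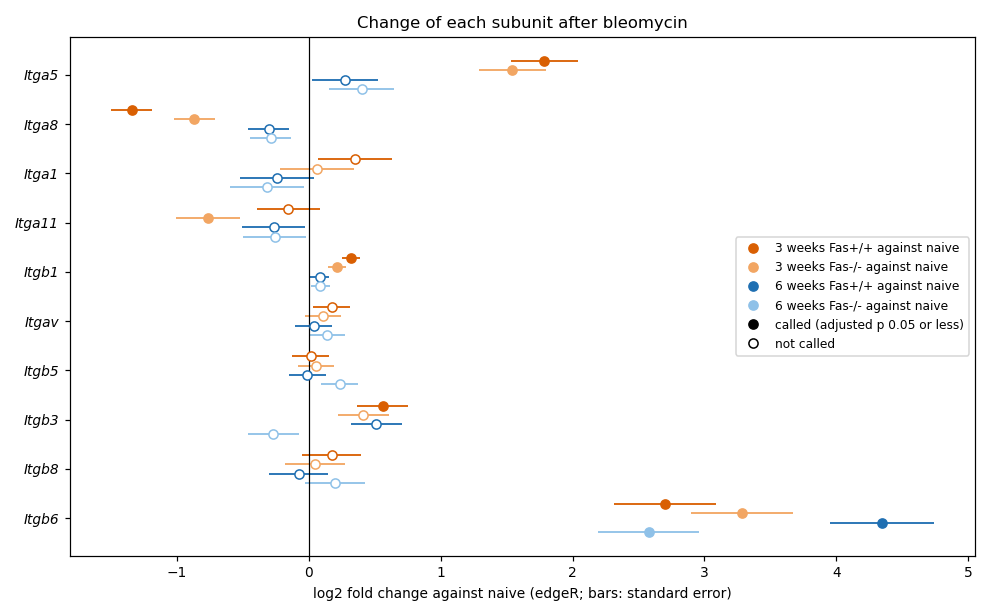
Log2 fold change of each subunit against naive libraries (x axis, edgeR estimate; bars are standard errors) for 3- and 6-week Fas+/+ and Fas-/- libraries, 4 libraries a group. Filled points passed the test and open points did not; Itga5 and Itga8 moved in opposite directions at 3 weeks, and Itgb6 lay to the right of 0 in all 4 comparisons.

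Itga5, the alpha subunit of the fibronectin receptor (GRCm38, chr15:103344286-103366763, minus strand), rose at 3 weeks. Naive libraries held 66.0, 108, 111 and 112 CPM. Fas+/+ libraries held 184, 360, 465 and 358 CPM at 3 weeks, and 99.96, 126, 126 and 129 at 6 weeks. Fas-/- libraries held 297, 352, 295 and 212 CPM at 3 weeks, and 84.9, 139, 130 and 170 at 6 weeks. All 8 libraries of week 3 lay above all naive and 6-week libraries; naive and 6-week libraries overlapped. The log2 fold change against naive was 1.79 ± 0.25 (SE; edgeR adjusted p = 4.59e-05) in Fas+/+ and 1.54 ± 0.25 (adjusted p = 0.000285) in Fas-/- libraries at 3 weeks. Between 3 and 6 weeks Itga5 fell by 1.51 ± 0.25 on the log2 scale in Fas+/+ (adjusted p = 0.000574) and by 1.14 ± 0.25 in Fas-/- libraries (adjusted p = 0.0107). Under all alternatives the 4 calls held, with adjusted p of at most 0.0433. The lowest of the week 3 libraries were the 2 that were highest in endothelial markers; without such libraries the changes against naive were 2.03 and 1.70 on the log2 scale.

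Itga8, the nephronectin-binding subunit (chr2:12106632-12301922, minus strand), moved the other way. The naive libraries held 1843, 1414, 1623 and 1458 CPM of this gene. At 3 weeks the Fas+/+ libraries held 813, 526, 471 and 691 CPM and the Fas-/- libraries 934, 823, 1037 and 685. At 6 weeks the values were 1414, 1158, 1242 and 1329 CPM in Fas+/+ and 1308, 1182, 1434 and 1268 in Fas-/- libraries. Every week 3 library lay below every naive and every 6-week library, and the 6-week Fas+/+ libraries lay narrowly below all naive ones, while the 6-week Fas-/- libraries overlapped them. The log2 fold change against naive was -1.34 ± 0.16 (edgeR adjusted p = 7.5e-06) in Fas+/+ and -0.87 ± 0.16 (adjusted p = 0.000581) in Fas-/- libraries at 3 weeks. Between 3 and 6 weeks Itga8 rose by 1.04 ± 0.16 in Fas+/+ (adjusted p = 0.000272) and by 0.58 ± 0.16 in Fas-/- libraries (adjusted p = 0.0281). The Fas-/- change from 3 to 6 weeks is the least firm: leaving out 3-week Fas-/- replicate 2 or 4, or 6-week Fas-/- replicate 1, 3 or 4, put its adjusted p between 0.0566 and 0.0772. At 6 weeks the differences from naive, -0.30 ± 0.15 in Fas+/+ and -0.29 ± 0.15 in Fas-/- libraries, were not called (edgeR adjusted p = 0.295 and 0.303).

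The level of Itga8 moved with markers of the Wnt2+ lipofibroblast, the lipid-bearing alveolar fibroblast. The summed level of 10 such markers was 10330 to 11750 CPM in naive libraries. At 3 weeks it was 3444 to 5708 CPM in Fas+/+ and 5761 to 7406 in Fas-/- libraries. At 6 weeks it was 7519 to 9466 CPM in Fas+/+ and 8263 to 10110 in Fas-/- libraries. Called lower were 9 of the 10 in 3-week Fas+/+ (19.2% of all genes) and 7 of 10 in 3-week Fas-/- libraries (14.8%). In the 3-week Fas-/- libraries 1 of the 10 was called higher (17.2% of all genes). Over the 20 libraries, log2 CPM of Itga8 and the mean of these markers had a Pearson r of 0.979, which describes libraries that share the same groups. Other lists also moved with Itga8: r was 0.792 with pericyte, 0.776 with mesothelial and 0.741 with vascular smooth muscle markers. With airway smooth muscle and Col14a1+ fibroblast markers it was 0.712 and 0.711. The r of Itga8 was -0.755 with profibrotic and -0.827 with lymphatic endothelial markers. Itga5 and Itgb1 had r of 0.858 and 0.885 with 10 profibrotic fibroblast markers, whose sum ran from 13330 to 18320 CPM in naive and from 11940 to 60450 in 3-week Fas+/+ libraries. The profibrotic markers were not alone in this: Itga5 also had an r of 0.853 with 6 markers of cycling cells, 0.765 with the hematopoietic and -0.827 with the lipofibroblast markers, and Itgb1 had 0.806, 0.730 and -0.887. All 6 cycling markers were called higher than naive in 3-week Fas+/+ libraries (22.1% of all genes) and 3 in 3-week Fas-/- libraries (17.2%). The profibrotic sum of 11940 CPM was that of 3-week Fas+/+ replicate 1, below every naive library, while the others of its group held 49680 to 60450. In 3-week Fas-/- replicate 4 the sum was 21390 CPM, beside 41840 to 52100 in the others of its group. These are the 2 endothelial-rich libraries. How far the makeup of the sort set these subunit levels was not tested in the bulk libraries.

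The partner Itgb1 (chr8:128685654-128733200, plus strand), the beta subunit shared by all 4 of these alpha subunits, changed little in size but was even between replicates. Naive libraries held 733, 793, 774 and 761 CPM. The 3-week values were 841, 979, 1075 and 933 CPM in Fas+/+ and 909, 941, 869 and 832 in Fas-/- libraries. The 6-week values were 785, 806, 837 and 817 CPM in Fas+/+ and 827, 824, 809 and 800 in Fas-/- libraries. All libraries of week 3 lay above all naive ones. Itgb1 was higher by 0.32 ± 0.07 on the log2 scale in 3-week Fas+/+ (edgeR adjusted p = 0.00145) and by 0.21 ± 0.07 in 3-week Fas-/- libraries (adjusted p = 0.0254). By 6 weeks it was lower again: it fell by 0.24 ± 0.07 in Fas+/+ libraries (adjusted p = 0.0192), while the Fas-/- difference of -0.12 ± 0.07 was not called (adjusted p = 0.274). Only the first of these calls held under every alternative (adjusted p at most 0.0347): the Fas-/- call at 3 weeks was lost without naive replicate 1 or 4 or Fas-/- replicate 1, 2 or 3 (adjusted p up to 0.149), without the filter (0.06) and in a fit of those 2 groups alone (0.0511), and the fall in Fas+/+ libraries without 3-week replicate 2 or 3 or any single 6-week Fas+/+ library (0.0538 to 0.0772) and in a fit of those 2 groups alone (0.118). The 6-week Fas-/- libraries also lay above all naive ones, by 0.09 ± 0.07, which was not called (adjusted p = 0.502).

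The share held by Itga8 per length was taken among the 4 members Itga1, Itga5, Itga8 and Itga11, which pair with Itgb1. Other alpha subunits are not in this sum, such as Itga9 and Itga3, at 32.6 and 14.15 CPM per kilobase in naive libraries. Nor is the member Itgav, which can also pair with Itgb1 and was at 10.5 CPM per kilobase in naive libraries. The Itga8 share was 85.5 ± 2.69% (SD, n = 4) in naive libraries, 49.0 ± 10.95% in 3-week Fas+/+ and 61.6 ± 4.17% in 3-week Fas-/- libraries. At 6 weeks it was 82.2 ± 2.07% in Fas+/+ and 81.7 ± 3.31% in Fas-/- libraries. Itga5 held 8.15 ± 2.28% in naive, 40.4 ± 14.2% and 30.6 ± 4.03% at 3 weeks in Fas+/+ and Fas-/-, and 11.5 ± 1.76% and 12.3 ± 3.27% at 6 weeks. The shares of the 2 genes did not overlap between naive and 3-week libraries, the Itga8 share being at least 83.4% in naive and at most 66.4% at 3 weeks. Over the 20 libraries log2 CPM of Itgb1 had a Pearson r of 0.909 with Itga5 and of -0.903 with Itga8, and Itga5 and Itga8 had r of -0.890; within groups these were 0.733, -0.600 and -0.483. Genes closest to Itga8 in pattern were Ogn, Lrp4 and Ablim3 (r of 0.987, 0.984 and 0.984). Nearest to Itga5 were Actr3, Nuf2, a kinetochore gene of dividing cells, and Eif4g2 (0.968, 0.967 and 0.963), and nearest to Itgb1 Uck2, Sept9 and Gars (0.956, 0.955 and 0.955).

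The 300 bases around the start of these 3 genes are shown because they moved together or apart most clearly. They were read from RefSeq (GRCm38.p6), run from 250 bases before to 50 after the start, and are written 5′ to 3′ on the strand of the gene, with matches in capitals to a GC box (GGGCGG, either strand) or a TEAD motif (GGAATG, either strand).
Itga5, chr15:103366742-103367041, minus strand: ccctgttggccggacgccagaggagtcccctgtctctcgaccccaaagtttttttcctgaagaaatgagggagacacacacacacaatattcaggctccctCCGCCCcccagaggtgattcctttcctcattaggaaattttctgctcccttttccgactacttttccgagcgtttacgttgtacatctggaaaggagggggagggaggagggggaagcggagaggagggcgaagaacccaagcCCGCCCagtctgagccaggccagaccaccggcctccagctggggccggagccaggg
Itga8, chr2:12301895-12302194, minus strand: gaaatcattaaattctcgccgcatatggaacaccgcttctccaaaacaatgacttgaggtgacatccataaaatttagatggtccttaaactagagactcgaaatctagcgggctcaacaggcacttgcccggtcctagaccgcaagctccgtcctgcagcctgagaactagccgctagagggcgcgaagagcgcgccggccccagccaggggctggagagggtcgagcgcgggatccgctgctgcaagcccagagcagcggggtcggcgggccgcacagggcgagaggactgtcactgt
Itgb1, chr8:128685404-128685703, plus strand: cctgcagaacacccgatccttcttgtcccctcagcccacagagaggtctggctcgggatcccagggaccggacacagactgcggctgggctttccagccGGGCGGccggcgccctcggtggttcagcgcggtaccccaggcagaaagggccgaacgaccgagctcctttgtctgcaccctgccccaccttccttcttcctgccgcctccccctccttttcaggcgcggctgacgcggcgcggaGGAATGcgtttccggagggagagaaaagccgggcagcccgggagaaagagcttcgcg
The Itga5 window held 2 GC boxes, the Itgb1 window 1 GC box and 1 TEAD motif, and the Itga8 window no match to either, nor to an AP-1 motif (TGANTCA) or a CArG box. Of 32851 promoter windows of the same length, 35.7% held a GC box, 14.7% the TEAD motif, 7.81% the AP-1 motif and 1.63% a CArG box. GC content was 58.7%, 59.0% and 67.3% in the Itga5, Itga8 and Itgb1 windows, beside a median of 52.7% over all windows. The table had an entry for 9 of the 10 members.

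The collagen receptors were the less regular alpha subunits. Itga1 (chr13:114953096-115101964, minus strand) held 245, 234.5, 208 and 153 CPM in naive, 447, 219, 183 and 222 in 3-week Fas+/+, and 182, 181, 163 and 353 in 3-week Fas-/- libraries. At 6 weeks it held 184, 178, 178 and 171 CPM in Fas+/+ and 174, 232, 159 and 113 in Fas-/- libraries. The 2 highest values of all belonged to the 2 libraries highest in endothelial markers, and all groups overlapped. No comparison was called, the difference of 0.35 ± 0.28 on the log2 scale in 3-week Fas+/+ libraries having an edgeR adjusted p of 0.335. Without the library of each group highest in epithelial markers, which leaves out both of these libraries, the differences from naive at 3 weeks were -0.02 in Fas+/+ and -0.28 in Fas-/- libraries. Without those highest in endothelial markers, the Fas+/+ difference did not change sign, while the Fas-/- difference did. Genes nearest to Itga1 in pattern were Pde3a, Slc4a8 and Mink1 (r of 0.957, 0.942 and 0.941).

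Itga11 (chr9:62677826-62783982, plus strand), a fibroblast collagen receptor, was low throughout. Its naive values were 16.8, 20.2, 20.3 and 34.1 CPM, its Fas+/+ values 17.03, 22.3, 17.6 and 25.1 at 3 weeks and 17.9, 19.5, 15.8 and 22.9 at 6 weeks, and its Fas-/- values 15.7, 16.9, 14.3 and 6.88 at 3 weeks and 19.8, 17.9, 17.2 and 21.6 at 6 weeks. The 3-week Fas-/- libraries were the lowest group and overlapped naive by 1 library (exact permutation test, two-sided, p = 0.0571). Their value of 6.88 CPM came from replicate 4, 1 of the 2 endothelial-rich libraries, while the others of the group held 14.3 to 16.9. The log2 difference from naive of -0.76 ± 0.24 was called (edgeR adjusted p = 0.0223) and lost its call without naive replicate 4, the highest naive library (-0.50, adjusted p = 0.103), and in a fit of those 2 groups alone (-0.77, adjusted p = 0.0933). Over all alternatives the adjusted p ran from 0.0103 to 0.103. The nearest patterns were those of Fgf9, Itih5 and Angptl1 (r of 0.855, 0.838 and 0.830).

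Itgav (chr2:83724397-83806916, plus strand), the alpha subunit of the TGF-beta-releasing integrins, was even between groups. Its naive values were 110, 117, 107 and 119 CPM. Fas+/+ libraries held 91.8, 137, 140 and 143 CPM at 3 weeks and 114, 119, 112 and 120 at 6 weeks, and Fas-/- libraries 134, 144, 126 and 84.7 and then 127, 119, 119 and 133. The values of 3-week Fas+/+ replicate 1 and 3-week Fas-/- replicate 4, the endothelial-rich libraries, were the lowest of their groups and lay below all naive values; the other 3-week libraries lay above all naive values. The 6-week Fas-/- libraries lay narrowly above naive, by 0.14 ± 0.14 on the log2 scale (edgeR adjusted p = 0.625). No comparison was called with all libraries, the differences from naive at 3 weeks being 0.18 ± 0.14 and 0.11 ± 0.14 (edgeR adjusted p = 0.327 and 0.572). Without the libraries highest in endothelial markers they were 0.32 and 0.26 and both were called (adjusted p = 0.000957 and 0.00676, within ranges of 0.000957 to 0.574 and 0.00676 to 0.974 over the alternatives). Leaving out 3-week Fas+/+ replicate 1 alone gave 0.30 (adjusted p = 0.0444). Genes nearest to Itgav were Fat1, Lum and Cpxm1 (r of 0.942, 0.933 and 0.929).

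Itgb5 (chr16:33829665-33949338, plus strand), per length the highest of the members Itgb3, Itgb5, Itgb6 and Itgb8, held 396, 431, 419 and 449 CPM in naive libraries. In Fas+/+ libraries it held 304, 501, 487 and 423 CPM at 3 weeks and 439, 391, 366 and 490 at 6 weeks. Its Fas-/- values were 460, 490, 457 and 356 CPM at 3 weeks and 571, 451, 456 and 520 at 6 weeks. The 6-week Fas-/- libraries lay above all naive libraries (exact permutation p = 0.0286, the smallest that 4 against 4 allows), by 0.24 ± 0.14 on the log2 scale, which the model across all genes did not call (edgeR adjusted p = 0.354). All other groups compared overlapped, and the share of all genes without overlap was not counted. Itgav and Itgb5 had an r of 0.758 over the 20 libraries, and the genes nearest to Itgb5 were Mfap5, Pdgfrl and Ltbp3 (0.934, 0.934 and 0.916).

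Itgb3 (chr11:104608000-104670476, plus strand), the vitronectin-receptor beta subunit that platelets also carry, was low and rose at 3 weeks in Fas+/+ libraries. Its levels were 22.1, 29.9, 26.4 and 29.7 CPM in naive, 36.3, 44.3, 42.01 and 37.0 in 3-week Fas+/+, and 39.7, 40.1, 37.3 and 26.9 in 3-week Fas-/- libraries. At 6 weeks they were 28.4, 54.8, 42.7 and 28.2 CPM in Fas+/+ and 17.3, 26.3, 23.9 and 22.2 in Fas-/- libraries. All 3-week Fas+/+ libraries lay above naive, and the 6-week Fas+/+ libraries lay above the 6-week Fas-/- ones. The difference from naive in 3-week Fas+/+ libraries was 0.56 ± 0.19 on the log2 scale (edgeR adjusted p = 0.026). In 3-week Fas-/- libraries it was 0.41 ± 0.19 (adjusted p = 0.108), with a range of 0.0117 to 0.293 over the alternatives, and in 6-week Fas+/+ libraries 0.51 ± 0.19 (adjusted p = 0.139). From 3 to 6 weeks Itgb3 fell by 0.68 ± 0.19 in Fas-/- libraries (adjusted p = 0.0368). Both calls depended on single libraries: the first was lost without naive replicate 1 or 3 or 3-week Fas+/+ replicate 2 or 3 (adjusted p 0.0555 to 0.1), and the other without 3-week Fas-/- replicate 1, 2 or 3 or 6-week Fas-/- replicate 1, 3 or 4 (0.0748 to 0.104).

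Platelet markers moved beside Itgb3. The summed level of 9 platelet markers was 0.215 to 0.996 CPM in naive libraries, 8.36 to 24.5 in 3-week Fas+/+, 12.5 to 19.9 in 3-week Fas-/-, 4.64 to 76.5 in 6-week Fas+/+ and 0.261 to 6.92 in 6-week Fas-/- libraries. The highest sum and the highest Itgb3 value both came from 6-week Fas+/+ replicate 2, and the Pearson r of Itgb3 with the platelet markers was 0.857. Genes nearest to Itgb3 in pattern were Gp6, Il21r and P2ry12 (r of 0.914, 0.876 and 0.857); Gp6, a platelet collagen receptor, is 1 of the 9 markers, and P2ry12 is the platelet ADP receptor. The part of platelet RNA in the Itgb3 differences was not tested.

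Itgb8 (chr12:119158022-119238802, minus strand), another subunit that binds latent TGF-beta, was not called in any comparison. Its values ran from 13.7 to 21.8 CPM in naive, 10.9 to 25.4 in 3-week Fas+/+, 12.9 to 20.5 in 3-week Fas-/-, 14.9 to 17.8 in 6-week Fas+/+ and 15.2 to 27.8 in 6-week Fas-/- libraries, and all groups compared overlapped. The nearest patterns were Sesn3, Ptger3 and Prrx1 (r of 0.894, 0.879 and 0.870).

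Itgb6 (chr2:60598292-60722643, minus strand), the epithelial partner of Itgav, had the lowest naive level and the steepest rise of the 10. Naive libraries held 1.98, 0.719, 1.34 and 1.17 CPM. Fas+/+ libraries held 12.4, 6.75, 5.23 and 9.28 CPM at 3 weeks and 16.95, 38.0, 30.5 and 20.4 at 6 weeks, and Fas-/- libraries 11.2, 10.6, 12.8 and 16.2 at 3 weeks and 5.22, 9.38, 12.02 and 4.52 at 6 weeks. Every library after bleomycin lay above every naive one, and the 6-week Fas+/+ libraries lay above those of all other groups. The log2 fold changes from naive were 2.70 ± 0.39 and 3.28 ± 0.39 at 3 weeks in Fas+/+ and Fas-/-, and 4.34 ± 0.40 and 2.58 ± 0.38 at 6 weeks (edgeR adjusted p = 4.74e-05, 1.94e-05, 8.69e-06 and 0.000778). By 6 weeks it had risen further by 1.64 ± 0.34 in Fas+/+ libraries (adjusted p = 0.0024). All 5 calls held under every alternative, with adjusted p of at most 0.0136.

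Epithelial markers were also higher after bleomycin. The sum of 12 epithelial markers was 54.9 to 146 CPM in naive, 227 to 787 in 3-week Fas+/+, 307 to 507 in 3-week Fas-/-, 591 to 1660 in 6-week Fas+/+ and 156 to 450 in 6-week Fas-/- libraries. Of the 12 markers, 10, 11, 12 and 4 were called higher than naive in the 4 groups in that order. Of all genes, 22.1%, 17.2%, 3.57% and 3.66% were called higher in the same groups. Itgb6 had an r of 0.883 with the mean of the 12 markers. From 3 to 6 weeks in Fas+/+ libraries, where Itgb6 rose, 7 of the markers were higher, 5 were lower and 6 were called higher (12% of all genes). Scnn1g, Cyp4f39 and Cldn7 were nearest in pattern (r of 0.969, 0.960 and 0.956); Scnn1g, an epithelial sodium channel subunit, and Cldn7, a tight junction protein, are genes of epithelia. Without the library of each group with the highest mean log2 CPM of these markers, the Itgb6 changes from naive were 2.48, 3.15, 4.13 and 2.48 on the log2 scale and all 4 were still called. In 6-week Fas-/- libraries replicate 3, which stayed in that fit, had the highest marker sum and the highest Itgb6; without it the change was 2.29 (edgeR adjusted p = 0.00232). How much of the Itgb6 level came from epithelial RNA was not tested in the bulk libraries.

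**Figure D3:**
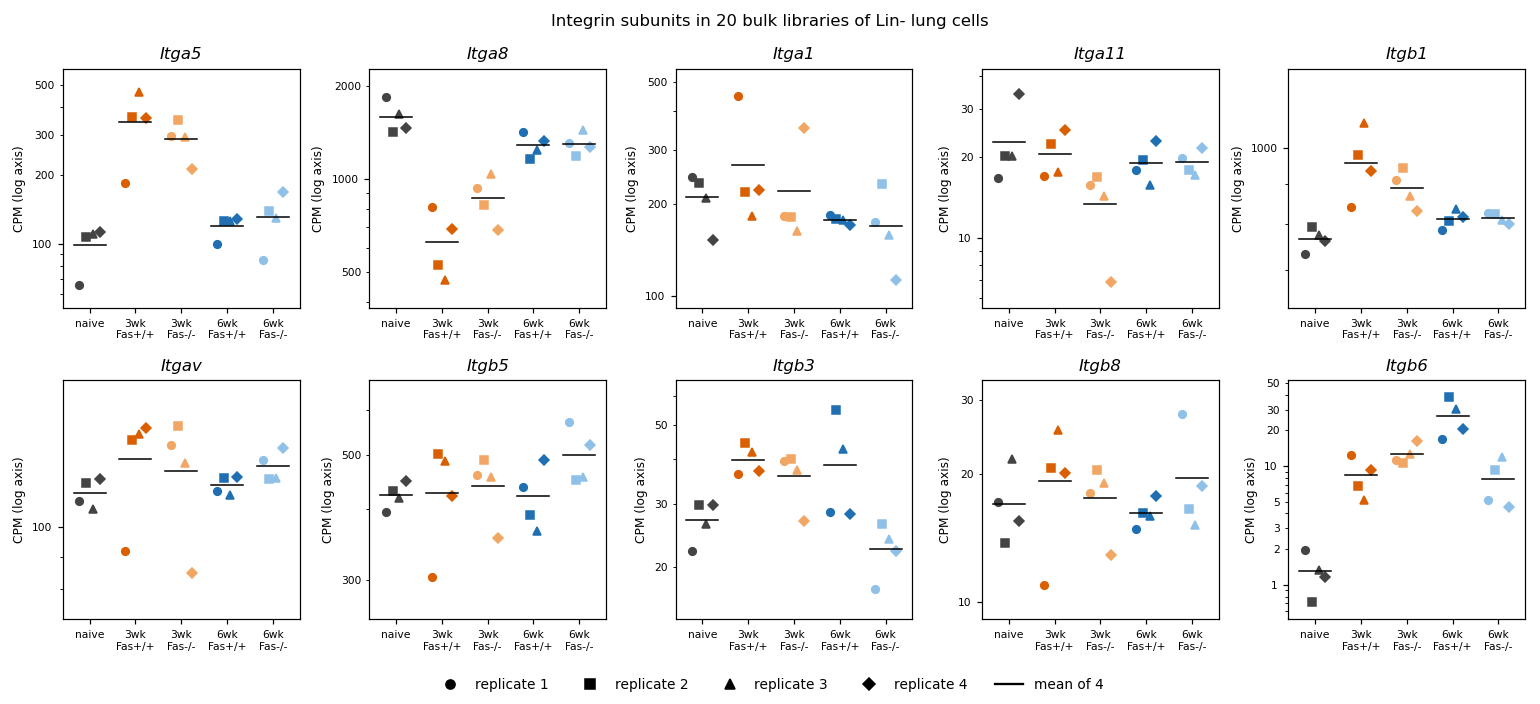
CPM (y axes, log scale) of the 10 subunits in each of the 20 bulk libraries by group (x axes); symbols mark the replicate number, which only names a library, and black lines are means of 4. Itga5 stood at 184 to 465 CPM at 3 weeks in Fas+/+ libraries against 66.0 to 112 in naive ones, and Itga8 at 471 to 813 against 1414 to 1843.

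**Figure D4:**
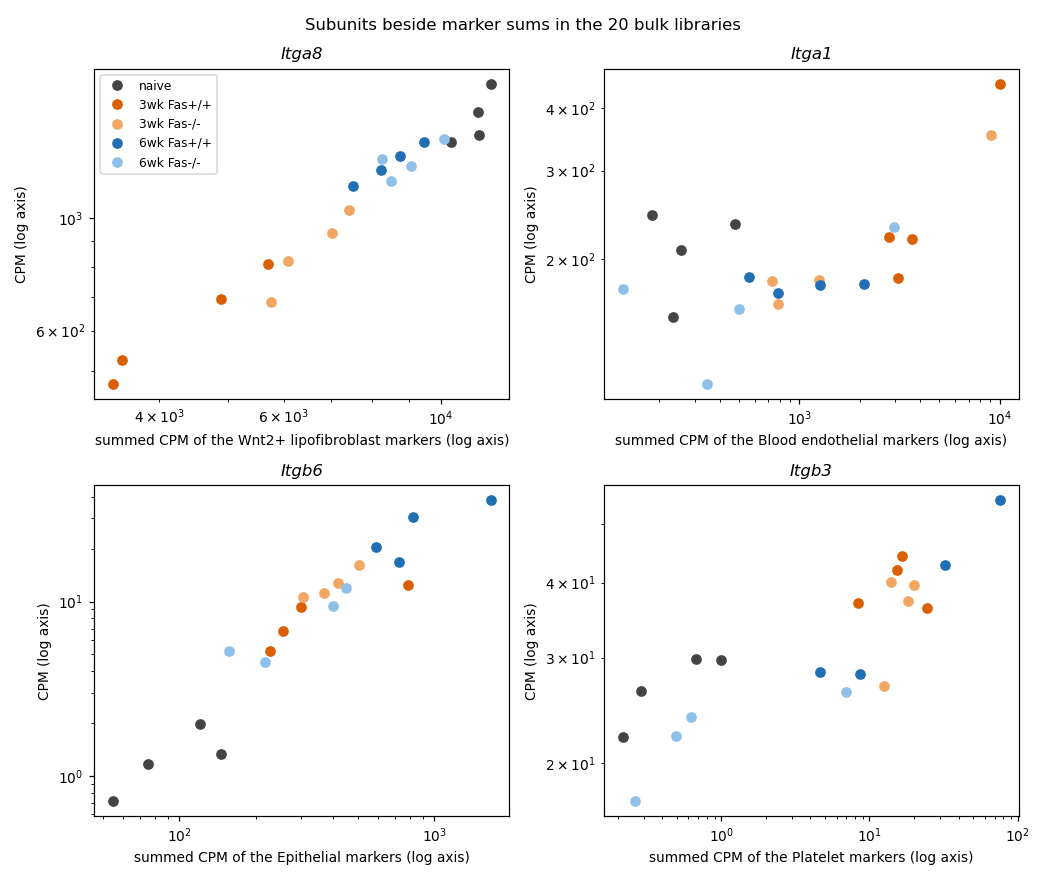
CPM of Itga8, Itga1, Itgb6 and Itgb3 (y axes, log scale) beside the summed CPM of the lipofibroblast, blood endothelial, epithelial and platelet markers (x axes, log scale) in the 20 bulk libraries, coloured by group. Itga8 and the lipofibroblast markers rise together (r of 0.979), and the 2 libraries with 10080 and 9073 CPM of endothelial markers carry the highest Itga1.

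The deletion was compared within each week. No member was called between Fas-/- and Fas+/+ libraries at 3 weeks, where 0.165% of all genes were called higher and 0.00634% lower, nor at 6 weeks, where 0.0254% were called in each direction. Before adjustment, 935 genes were higher and 424 lower with a p of at most 0.05 in edgeR at 3 weeks, and 618 and 655 at 6 weeks; DESeq2 called 0 members and 163 genes in all at 3 weeks, and 2 members and 162 genes in all at 6 weeks. The median difference of the members was -0.117 at 3 weeks and 0.010 at 6 weeks on the log2 scale, beside -0.002 and -0.001 over all genes. At 3 weeks the largest member differences were those of Itga11, -0.61 ± 0.24 (edgeR adjusted p = 0.454), and Itgb6, 0.58 ± 0.34 (adjusted p = 0.69). Itga8 followed with 0.48 ± 0.15 (edgeR adjusted p = 0.293, with a range of 0.00378 to 0.815 over the alternatives). Itga11 values did not overlap between the 2 groups (exact permutation p = 0.0286), while those of Itgb6 and Itga8 did. The Itga11 gap was narrow, with 16.9 CPM as the highest Fas-/- and 17.03 CPM as the lowest Fas+/+ value. The lowest Itga11 value, 6.88 CPM, was that of 3-week Fas-/- replicate 4. The share of all genes without overlap was not counted. The Itga8 difference was called without 3-week Fas+/+ replicate 1 (0.63, adjusted p = 0.0386), without 3-week Fas-/- replicate 4 (0.59, adjusted p = 0.039) and without the libraries highest in endothelial markers (0.72, adjusted p = 0.00378); those are the 2 libraries named for their endothelial RNA.

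At 6 weeks the values of Itgb6 and Itgb3 did not overlap between genotypes. The share of all genes without overlap was not counted here either. The difference of Fas-/- from Fas+/+ libraries was -1.77 ± 0.34 on the log2 scale for Itgb6 (edgeR adjusted p = 0.0715; 0.000231 to 0.276 over the alternatives), and -0.78 ± 0.19 for Itgb3 (adjusted p = 0.166; 0.0215 to 0.591), each with an exact permutation p of 0.0286. DESeq2 called both (adjusted p = 0.000231 and 0.0215), and edgeR called Itgb6 without 6-week Fas+/+ replicate 1 (-1.93, adjusted p = 0.0437). The epithelial and platelet sums differed the same way, with medians of 773 and 308 CPM for epithelial and 20.6 and 0.556 CPM for platelet markers in Fas+/+ and Fas-/- libraries. All 12 epithelial markers were lower and none was called. All 9 platelet markers were lower and 1 was called (0.0254% of all genes called lower). Itgb3 is also among the genes that the study lists from these libraries, so its 6-week difference is not independent of that choice. Itgb5 was 0.24 ± 0.14 higher in Fas-/- libraries and not called (adjusted p = 0.748). Itga5, Itga8 and Itgb1 differed by 0.13 ± 0.25, 0.01 ± 0.15 and 0.01 ± 0.07 (adjusted p = 0.988, 1 and 1).

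Across time, 2 members were called higher and 2 lower at 6 than at 3 weeks in Fas+/+ libraries (12% and 10.9% of all genes), and 1 higher and 2 lower in Fas-/- libraries (4.48% and 4.54%). Itga5 and Itga8 were called in both. Itgb1 and Itgb6 were called in Fas+/+ libraries and Itgb3 in Fas-/- ones, but the difference between genotypes in the change over time, tested as an interaction, was called for no member (0% of all genes called higher, 0.00634% lower; 418 and 792 before adjustment). It was -2.35 ± 0.48 for Itgb6 (edgeR adjusted p = 0.113; 0.00117 with DESeq2 and 0.026 without 3-week Fas+/+ replicate 1, with a range of 0.00117 to 0.302), -0.63 ± 0.27 for Itgb3 (0.602), -0.46 ± 0.22 for Itga8 (0.648) and 0.12 ± 0.10 for Itgb1 (0.889).

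Other genes of the same pathway were taken from lists made by function. Of 16 other integrin subunits, 13 could be tested. In 3-week Fas+/+ libraries 7 were called higher than naive and 2 lower (22.1% and 19.2% of all genes), and in 3-week Fas-/- libraries 5 and 1 (17.2% and 14.8%). Itga2, a collagen receptor subunit, rose by 3.39 ± 0.60 on the log2 scale in Fas+/+ (edgeR adjusted p = 0.000291) and 2.87 ± 0.59 in Fas-/- libraries (0.00156). Its 3-week Fas-/- libraries were uneven, from 8.32 to 44.7 CPM with a mean of 17.9. The 3-week Fas+/+ libraries held 19.4 to 40.7 CPM of it and naive ones 1.67 to 3.08. Values without the endothelial-rich libraries are not given for the genes of these lists. Itgb2, the leukocyte beta subunit, rose by 3.38 ± 0.94 (0.00819) and 4.26 ± 0.94 (0.00281). Itgax, of myeloid cells, had no read in any naive library and a mean of 1.98 CPM in 3-week Fas+/+ and 4.51 CPM in 3-week Fas-/- libraries, so no fold is given. Itga4 fell by 0.90 ± 0.24 in Fas+/+ (0.00569) and 0.86 ± 0.24 in Fas-/- libraries (0.0104), and Itga9 by 0.38 ± 0.12 in Fas+/+ libraries (0.0136). At 6 weeks 3 were called higher in Fas+/+ libraries (3.57% of all genes) and none in Fas-/- libraries (3.66%). The 3 were Itga2b, the platelet partner of Itgb3 (2.39 ± 0.45, edgeR adjusted p = 0.00374), Itgb2 (3.34 ± 0.93, 0.0442) and Itgal (1.70 ± 0.49, 0.0498). The 10 hematopoietic markers summed to 8.27 to 11.5 CPM in naive and 63.9 to 89.3 in 3-week Fas+/+ libraries. Of the 9 that could be tested, 8 were called higher (22.1% of all genes). Their part in the Itgb2 and Itgax values was not tested.

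The adhesion complex, which links integrins to actin, moved both ways. Of 24 tested genes 8 were called higher and 10 lower in 3-week Fas+/+ (22.1% and 19.2% of all genes), and 4 and 6 in 3-week Fas-/- libraries (17.2% and 14.8%). At 6 weeks 2 and 2 were called in Fas+/+ (3.57% and 1.74%), and 1 and 3 in Fas-/- libraries (3.66% and 2.81%). Bcar1, a scaffold that is phosphorylated at adhesions, rose by 1.02 ± 0.10 in 3-week Fas+/+ (edgeR adjusted p = 1.81e-06) and 0.85 ± 0.10 in 3-week Fas-/- libraries (2.41e-05). Fermt3, the kindlin of blood cells, rose by 3.77 ± 0.72 (0.000582) and 3.46 ± 0.72 (0.0017), Parvb by 2.44 ± 0.71 in Fas+/+ libraries (0.0106), and Actn1, an actin crosslinker, by 0.58 ± 0.20 (0.0233) and 0.56 ± 0.20 (0.0375). Tns1, a tensin that binds the beta tail, fell by 1.37 ± 0.20 (5.03e-05) and 1.12 ± 0.20 (0.00046), and Zyx, an actin-regulating adhesion protein, by 0.78 ± 0.08 (3.6e-06) and 0.39 ± 0.08 (0.00221). Zyx stayed lower than naive at 6 weeks by 0.31 ± 0.08 in Fas+/+ (0.0361) and 0.42 ± 0.08 in Fas-/- libraries (0.00537). The median over the list was -0.124 and -0.060 on the log2 scale at 3 weeks in Fas+/+ and Fas-/-.

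Of 20 integrin ligands, 9 were called higher and 3 lower in 3-week Fas+/+ (22.1% and 19.2% of all genes), and 8 and 3 in 3-week Fas-/- libraries (17.2% and 14.8%). Spp1, or osteopontin, an RGD ligand of Itgav integrins, rose by 4.95 ± 0.72 (edgeR adjusted p = 5.8e-05) and 4.90 ± 0.72 (0.00012). Tnc, tenascin-C, rose by 3.74 ± 0.61 (0.00016) and 3.42 ± 0.60 (0.000501), and Lama1, a laminin chain, by 6.80 ± 0.89 (2.23e-05) and 5.26 ± 0.88 (0.000337) from 0.236 CPM in naive libraries. Npnt, nephronectin, the ligand of Itga8, fell by 1.21 ± 0.14 (6.19e-06) and 0.59 ± 0.14 (0.00365); it is also 1 of the lipofibroblast markers. Vtn, vitronectin, fell by 1.24 ± 0.27 (0.00172) and 1.18 ± 0.27 (0.00365), and Mfge8, another RGD ligand, by 0.64 ± 0.11 (0.000308) and 0.54 ± 0.11 (0.00174). From 3 to 6 weeks 4 ligands were called higher and 11 lower in Fas+/+ libraries (12% and 10.9% of all genes), and 0 and 3 in Fas-/- libraries (4.48% and 4.54%).

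Of 11 genes of latent TGF-beta, 5 were called higher and 2 lower in 3-week Fas+/+ (22.1% and 19.2% of all genes), and 5 and 1 in 3-week Fas-/- libraries (17.2% and 14.8%). Tgfb1, the cytokine itself, rose by 2.09 ± 0.17 (edgeR adjusted p = 3.79e-07) and 1.89 ± 0.17 (1.27e-06), and was still higher than naive at 6 weeks by 0.63 ± 0.16 in Fas+/+ (0.0297) and 0.86 ± 0.16 in Fas-/- libraries (0.00448). Of the latent TGF-beta binding proteins, Ltbp2 rose at 3 weeks by 1.66 ± 0.34 (0.00103) and 1.61 ± 0.34 (0.00202), and Ltbp4 fell by 1.28 ± 0.13 (1.79e-06) and 1.02 ± 0.13 (3.24e-05). Between genotypes and in the interaction no gene of these 4 lists was called, and none of the lists is shown to move differently from other genes by these counts.

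Single-cell libraries were used to see which cells held each subunit. They held 13900 barcodes, of which 12059 passed as cells, and the naive library was the smallest with 603 cells. Of its 766 barcodes, 378 also occurred in another library, beside 178 to 485 of 2933 to 3675 barcodes in the others; values of the naive library are therefore given with and without shared barcodes where they differ. Median UMIs per cell ran from 5768 to 8896. The time labels of these libraries went against the bulk data. Genes called from 3 to 6 weeks in bulk were followed if they reached a minimum CPM in either single-cell library of the genotype. In Fas+/+ this kept 1359 of 1890 genes called higher and 1187 of 1725 called lower. Of the 1359, 4.27% were higher in the library labelled 6 weeks than in that labelled 3 weeks, and of the 1187, 1.77% were lower. For Fas-/- the shares were 6.51% of 522 and 4.48% of 446. In mesenchyme-type cells alone they were 10.4% of 1329 and 6.42% of 1122 in Fas+/+, and 6.48% of 525 and 4.54% of 441 in Fas-/-. The cause was not tested, and no direction over time is drawn from single cells. Classes were named from markers, as "-like", and clusters that did not pass the naming rule keep their number. Mesenchyme-type cells are the fibroblast-like, smooth muscle-like, pericyte-like and mesothelial-like classes together with cluster 1, cluster 5 and cluster 7. Intervals cover counting error only.

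The opposite order is seen in the members too. Summed over the mesenchyme-type cells, Itga8 was at 490, 493, 482, 291 and 319 CPM in the libraries labelled naive, 3-week Fas+/+, 3-week Fas-/-, 6-week Fas+/+ and 6-week Fas-/-, and Itga5 at 26.1, 19.1, 22.9, 68.9 and 61.5 CPM. Itgb1 was at 537, 555, 619, 759 and 695 CPM. The libraries labelled 6 weeks thus had the low Itga8, high Itga5 and high Itgb1 that bulk libraries labelled 3 weeks had. Lipofibroblast markers summed to 7978, 6987, 6985, 4163 and 4512 CPM and profibrotic markers to 4114, 4659, 6224, 16730 and 19210 CPM in the same cells. Without the shared barcodes the naive library had 579 CPM of Itga8 and 14.1 CPM of Itga5.

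Itga8 was highest in the Wnt2+ lipofibroblast-like cells. In the 5 libraries, in the order given above, it was at 956, 1122, 1038, 991 and 975 CPM in this class, from 151 to 412 cells each, with a UMI in at least 92.3% of the cells (95% Clopper-Pearson interval of that lowest share 89.3 to 94.7). Its level there spanned a narrower range than in the whole mesenchyme; at a lower clustering resolution of 0.4, where the class takes in more cells, it was 758, 765, 712, 523 and 553 CPM. In profibrotic fibroblast-like cells Itga8 was at 324 and 346 CPM in the libraries labelled 3 weeks and at 92.0 (95% Poisson interval 85.0 to 99.4) and 79.1 (73.2 to 85.3) in those labelled 6 weeks, from 117, 216, 252 and 325 cells. Vascular smooth muscle-like cells held 526 to 727 CPM. Erythroid-like cells, which should lack the gene, held 109 to 333 CPM with a median of 888 to 3049 UMIs per cell, beside medians of 7905 to 26760 in the profibrotic fibroblast-like cells. In cells thinned to 3000 UMIs, 46.85%, 47.9%, 20.96% and 19.1% of the profibrotic fibroblast-like cells of the 4 libraries after bleomycin had a UMI of Itga8. Of the erythroid-like cells of the same libraries 44.6%, 60.0%, 18.6% and 26.8% had one, so these shares do not set the profibrotic cells apart from them. Thinning keeps only cells of at least 3000 UMIs, while the erythroid-like medians in these libraries were 888 to 1676. Pooled over libraries, the erythroid-like class also held 6098 CPM of lipofibroblast markers, beside 1404 in the profibrotic class. Whether free RNA or mixed cells gave these reads was not tested. Airway smooth muscle-like, Col14a1+ fibroblast-like and pericyte-like cells, held 19.2 to 119 CPM.

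Itga5 was highest in vascular smooth muscle-like cells, at 172, 101, 121, 157 and 220 CPM; without shared barcodes the naive value was 34.7 CPM, from 2 UMIs in 13 cells. Classes are ranked here among those with at least 20 cells in at least 3 libraries, a rule chosen after the data were seen. In profibrotic fibroblast-like cells it was at 22.7 (16.1 to 30.97) and 32.5 (24.7 to 42.1) CPM in the libraries labelled 3 weeks and at 136 (127 to 145) and 104 (97.0 to 111) in those labelled 6 weeks. In cells thinned to 3000 UMIs, 6.31% and 5.46% of the profibrotic fibroblast-like cells had a UMI of Itga5 in the former and 17.9% and 17.5% in the latter, beside 25.6% (95% Clopper-Pearson interval 18.02 to 34.5), 16.7% (11.95 to 22.3), 60.3% (54.0 to 66.4) and 59.1% (53.5 to 64.5) before thinning, at median depths of 12700, 7905, 26760 and 25090 UMIs. Erythroid-like cells, thinned alike, had a UMI in 0% to 7.32%. By CPM, lipofibroblast-like cells held 5.87 to 10.4 and erythroid-like cells at most 27.7.

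The collagen receptor subunits parted by class. Itga1 was highest in pericyte-like cells, which wrap capillaries, at 2911, 2785, 2659, 2201 and 3061 CPM with a UMI in 94.7% (90.8 to 97.3) to 98.6% (92.6 to 99.97) of the cells, at median depths of 3493 to 5508 UMIs. Erythroid-like cells, at medians of 888 to 3049 UMIs, held 8.46 to 94.9 CPM of Itga1, with a UMI in 3.45% to 18.35% of the cells; in cells thinned to 3000 UMIs the shares were 96.25% to 100% in pericyte-like and 2.86% to 13.95% in erythroid-like cells. Blood endothelial-like cells held 937 to 1099 CPM in the 4 libraries with at least 20 of them, and vascular smooth muscle-like cells 487 to 626. Col14a1+ and lipofibroblast-like cells stayed between 13.7 and 48.6 CPM. Itga11 was low everywhere and highest in Col14a1+ fibroblast-like cells, at 31.4, 26.2, 17.9, 15.3 and 8.42 CPM, the naive value being 116 without shared barcodes. Lipofibroblast-like cells held at most 0.652 CPM of it.

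Itgb1 was found in every named class, at 1146 to 1409 CPM in pericyte-like and 952 to 1444 CPM in vascular smooth muscle-like cells, and at 308 to 442 CPM in Col14a1+ fibroblast-like and 320.5 to 367 CPM in mesothelial-like cells. Erythroid-like cells held 313 to 568 CPM, which is within the range of the lower classes. Itgav was likewise broad, at 49.6 to 57.3 CPM in lipofibroblast-like cells, 94.95 to 148 in pericyte-like and 110 to 180 in mesothelial-like cells.

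Of the Itgav partners, Itgb5 was highest in profibrotic fibroblast-like cells, at 361, 431, 411 and 378 CPM in the 4 libraries after bleomycin, and at 167 to 277 CPM in lipofibroblast-like, Col14a1+ fibroblast-like and cluster 1 cells. Itgb8 was at 23.9 to 40.7 CPM in profibrotic fibroblast-like cells and 30.3 to 44.3 CPM in cluster 1, whose leading genes were Clec11a, Tmem35a and Gdf10, and at 3.91 to 5.96 CPM in lipofibroblast-like cells.

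Itgb6 lay mostly in epithelial-like cells, and Itgb3 was highest per cell in platelet-like cells. Itgb6 was at 542 (492 to 595), 301 (251 to 357) and 759 (666 to 861) CPM in the epithelial-like cells of the libraries labelled 3-week Fas+/+, 6-week Fas+/+ and 6-week Fas-/-, from 77, 53 and 53 cells, and at most at 8.36 CPM in any other class of at least 20 cells in a library. The 151 to 412 lipofibroblast-like cells of a library held at most 0.701 CPM of it. Itgb3 was at 1862 CPM (1421 to 2396) in the 23 platelet-like cells of the library labelled 3-week Fas+/+, from 60 UMIs, and at 1068 and 739 CPM in the 9 and 14 platelet-like cells of those labelled 6-week Fas+/+ and 6-week Fas-/-. It was at 58.8 to 88.2 CPM in epithelial-like cells of the same 3 libraries, at 22.3 to 47.4 in mesothelial-like and at 17.5 to 27.4 in vascular smooth muscle-like cells. Lipofibroblast-like cells held 1.05 to 5.22 CPM and profibrotic fibroblast-like cells 3.37 to 14.2 CPM of Itgb3 in the libraries with over 20 of them. Erythroid-like cells held at most 5.55 CPM of Itgb3. Counted as UMIs, most of the Itgb3 of each library lay in mesenchyme-type cells, which are far more numerous. They include the mesothelial-like and vascular smooth muscle-like classes as well as fibroblasts. Mesenchyme-type cells held 50 of 53, 143 of 263, 80 of 100, 193 of 309 and 250 of 315 UMIs of Itgb3 in the 5 libraries. Of Itgb6 the mesenchyme-type cells held 2 of 7, 13 of 448, 8 of 102, 8 of 141 and 7 of 258 UMIs. How much RNA of these cells entered the bulk levels was not tested.

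**Figure D5:**
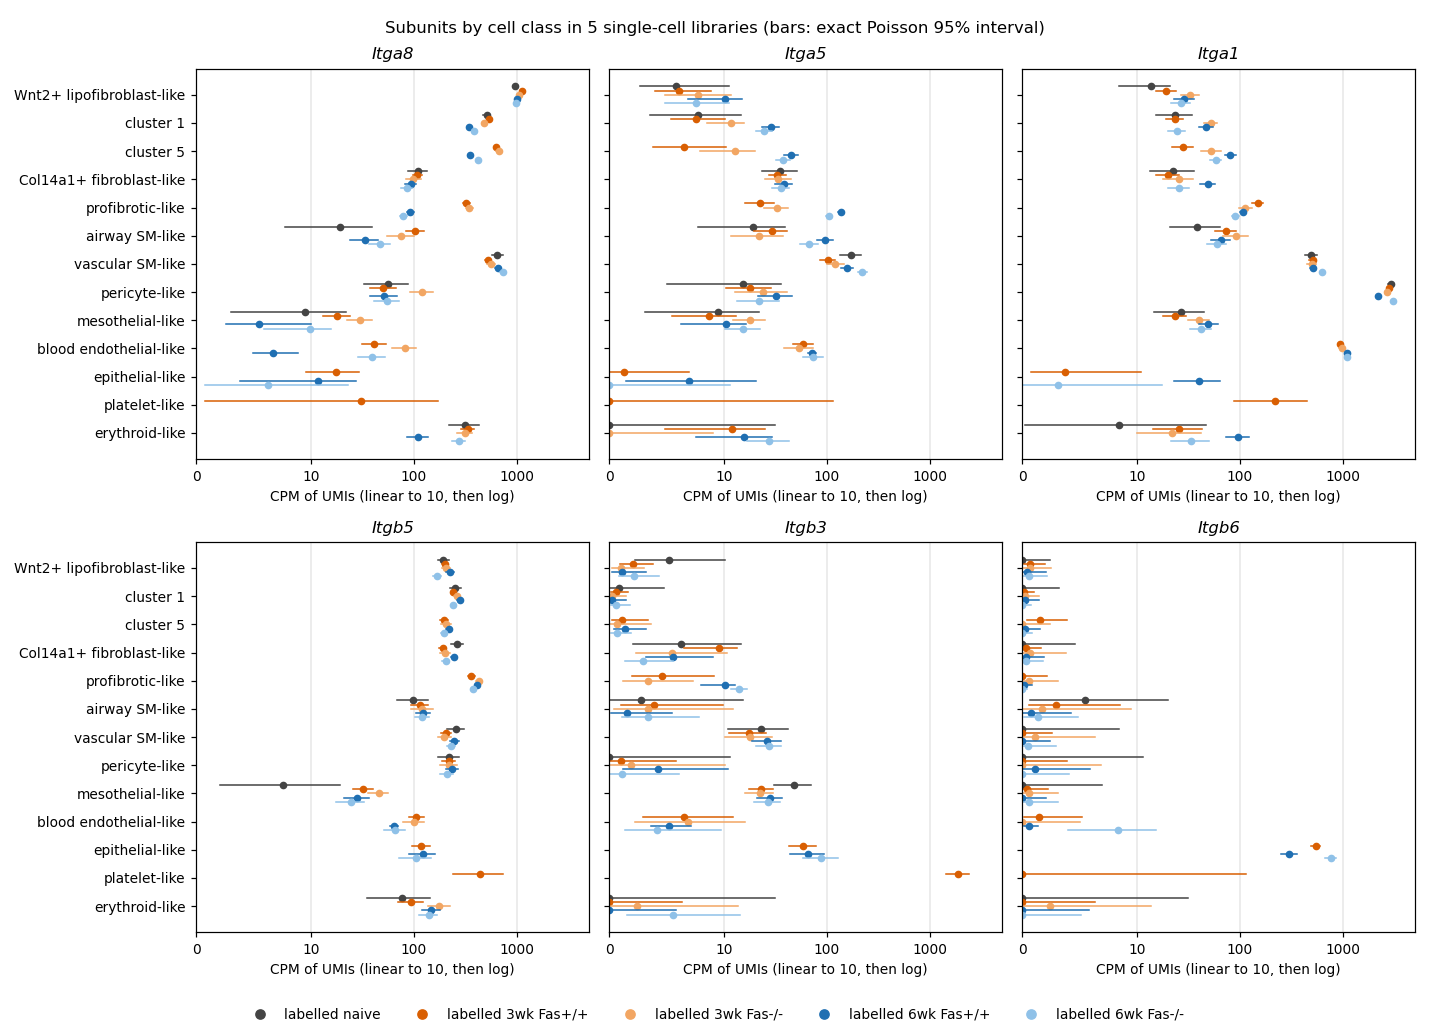
CPM of summed UMIs (x axes, symlog scale, linear below 10) of Itga8, Itga5, Itga1, Itgb5, Itgb3 and Itgb6 in cell classes (y axis) of the 5 single-cell libraries, coloured by label; bars are 95% Poisson intervals and classes with under 20 cells in a library are left out. Itga8 reached 956 to 1122 CPM in lipofibroblast-like cells, Itga1 2201 to 3061 in pericyte-like cells, and Itgb6 301 to 759 in epithelial-like cells.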

How the data were processed

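RNA from Lin- lung cells was measured in 20 bulk libraries (5 groups of 4) and 5 single-cell libraries. The deposited bulk table holds raw counts per gene: for it the authors used skewer for trimming, Hisat2 with the GRCm38 genome for alignment and htseq-count with an Ensembl annotation for counting. A second deposited table holds the same counts divided by DESeq2 size factors by the authors, a normalized signal that differed from such a division by at most 5.43e-15 in relative terms. The single-cell matrices hold UMI counts per barcode, deposited by the authors as Cell Ranger wrote them. No column was left unassigned to a sample (0 columns).

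Counts were tested with edgeR 4.0.16 in R 4.3.3 (quasi-likelihood, TMM scaling, filterByExpr with a minimum count of 10, prior count of 2, all 5 groups in 1 fit), with Benjamini-Hochberg adjustment over 15773 of 47729 genes and calls at an adjusted p of at most 0.05, in 9 comparisons. Standard errors were derived from the log2 fold change and its F statistic. Single values were compared by exact two-sided permutation over 4 against 4 libraries. Alternatives were RLE scaling, DESeq2 1.42.0, no filter, a replicate block, only the groups compared, each library left out, the library of each group highest in endothelial or epithelial markers (mean log2 CPM) left out and, added after the data were seen, transcript in place of exon length. Replicate numbers were checked for pairing. Deviations of libraries with the same number had a median r of 0.034, and 14 of 40 pairs were over 0.1. With different numbers the median was -0.02, and 38 of 120 pairs were over 0.1. No clear pairing was seen, which does not exclude it, and libraries were treated as unpaired.

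Barcodes were retained at 200 to 7500 genes with a mitochondrial share no higher than 20%, integrated with Seurat 5.3.0 (3000 features, 20 components) and clustered at a resolution of 0.8. Clusters were named "-like" from fixed markers where at least 3 were 2-fold higher, with 2 exceptions. A cluster kept its number if another list had more markers among its 10 highest genes by fold. It also kept its number if it was shallow and had no marker of its own list there. Cluster 1, with 1457 cells and 3 lipofibroblast markers 2-fold higher, stayed unnamed by the first exception, and cluster 20 by the other. UMIs were summed per class and library, with exact 95% Poisson intervals. Scrublet marked 46 cells, too few to have worked, so doublets were not removed. Thinned shares used 3000 UMIs per cell, leaving out 110 to 773 shallower cells a library. Levels were compared between genes per kilobase of merged exons (GENCODE, GRCm38).

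The members, marker lists and pathway lists were chosen with earlier results of these data known. Genes of the pathway lists were named by size of change: for each list and comparison, up to 3 called genes in each direction. Nearest patterns were the 3 tested genes with the highest Pearson r of log2 CPM over 20 libraries.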

Additional observations from a re-analysis of the deposited data

Results flagged for a closer look

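In 4 of the 50 sets of 4 libraries examined (10 members in 5 groups), 1 library stood apart from the other 3 by Dixon's criterion, which chance alone would flag in about 1 of 20. Itgav was 91.75 CPM in 3-week Fas+/+ replicate 1, where the other libraries held 136.8 to 143.2. Itga1 was 353 CPM in 3-week Fas-/- replicate 4, beside 163 to 182. These are the libraries with the most endothelial marker RNA, at 10080 and 9073 CPM. Itga5 was 66.03 CPM in naive replicate 1, beside 107.5 to 112.3, and 99.96 CPM in 6-week Fas+/+ replicate 1, beside 125.5 to 128.8.

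Itgb3 at 6 weeks was higher than the naive mean in all 4 Fas+/+ libraries and lower in all 4 Fas-/- libraries, a difference between the group means of 16.09 CPM. The margins were small: the lowest Fas+/+ value was 28.15 and the highest Fas-/- value 26.33 CPM, beside a naive mean of 27.01. Both groups overlapped the naive libraries, which held 22.1 to 29.87 CPM. Neither was called against naive (edgeR adjusted p = 0.139 in Fas+/+ and 0.471 in Fas-/- libraries). The opposite movement was not itself tested; the comparison of the genotypes at 6 weeks had an edgeR adjusted p of 0.166.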

How the results depend on the processing

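Of the values of single members in the 9 bulk comparisons, 1323 kept direction and side of the threshold under the alternatives, 31 lost a call, 24 gained one and 52 changed sign, the last all in differences that were not called. Single-cell levels moved by less than the counting interval in 182 cases and by more in 15. In naive libraries the order per length kept all 9 neighbours under the deposited normalized values and under transcript length, an alternative added after the data were seen; in other groups transcript length put Itga8 above Itgb1 or Itgb5. Libraries highest in markers are those with the highest mean log2 CPM. A library left out leaves 3 libraries in its group.

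The count of members called in 3-week Fas-/- against naive libraries, 5, was 3 in a fit of those 2 groups alone and 3 to 5 with a library left out (3 without naive replicate 4). Between genotypes at 3 weeks it was 1 instead of 0 without the endothelial-highest and without the epithelial-highest libraries, where 1247 and 1295 of all genes were called (26 higher and 1 lower with all libraries), and 0 to 1 with a library left out. At 6 weeks it was 2 with DESeq2 (162 of all genes), 1 without each of those sets of libraries (150 and 87; 4 higher and 4 lower with all) and 0 to 1 with a library left out. From 3 to 6 weeks in Fas-/- libraries, 3 calls became 1 to 3 with a library left out (1 without 3-week Fas-/- replicate 2 or 6-week Fas-/- replicate 1, 3 or 4). For the interaction, 0 became 1 with DESeq2 (93 of all genes, beside 1 in edgeR) and without each of those sets (272 and 223), and 0 to 1 with a library left out (162 of all genes without 3-week Fas+/+ replicate 1). With the replicate block the counts in the 9 comparisons were 5, 6, 1, 1, 0, 0, 4, 3 and 0; the block changed 1 call, Itgb3 in 3-week Fas-/- against naive libraries (0.41, edgeR adjusted p = 0.0481).

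Signs changed as follows without the endothelial- or epithelial-highest libraries, on the log2 scale: Itga1 to -0.02 in 3-week Fas+/+ and to -0.22 and -0.28 in 3-week Fas-/- against naive; Itgb5 to 0.03 and 0.01, Itgav to -0.01 and Itgb8 to 0.05 in 6-week Fas+/+ against naive; Itgb5 to -0.01 and -0.01 between genotypes at 3 weeks; Itgav to -0.08 and -0.08 from 3 to 6 weeks in Fas-/-; and Itga1 to -0.01 in the interaction. With a library left out, sign-changing ranges were, for 3-week Fas+/+ against naive, Itgb5 -0.07 to 0.14, Itga11 -0.29 to 0.11 and Itga1 -0.02 to 0.49. For 3-week Fas-/- against naive they were Itgb8 -0.05 to 0.19, Itga1 -0.27 to 0.16 and Itgb5 -0.01 to 0.13. For 6 weeks against naive they were Itgb8 -0.17 to 0.06 and Itgb5 -0.09 to 0.05 in Fas+/+, and Itgb8 -0.01 to 0.34 in Fas-/-. Between genotypes at 3 weeks they were Itgb5 -0.09 to 0.13, Itga1 -0.60 to 0.08, Itgb8 -0.32 to 0.03 and Itgav -0.20 to 0.08, and at 6 weeks Itgb1 -0.01 to 0.02, Itga11 -0.07 to 0.10, Itga8 -0.04 to 0.06, Itga1 -0.26 to 0.08 and Itga5 -0.02 to 0.29. From 3 to 6 weeks they were Itgb3 -0.25 to 0.09 and Itgb5 -0.16 to 0.06 in Fas+/+, and Itgav -0.11 to 0.12 and Itgb8 -0.06 to 0.26 in Fas-/-. For the interaction Itga1 ran from -0.15 to 0.52. The causes were not tested.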
